A study of Mus musculus with 8 samples.

Results

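The genes described here are 10 that carry out the making and loading of MHC class I peptides, measured in precursors of mouse dendritic cells. They are the class I light chain B2m, the peptide transporter genes Tap1 and Tap2, the loading factor Tapbp, the immunoproteasome subunits Psmb8, Psmb9 and Psmb10, the chaperones Calr and Pdia3, and the trimming peptidase Erap1. They were chosen by symbol, out of 19938 genes measured, and all 10 had exactly 1 probe set whose annotation named that gene alone. Affymetrix gene arrays were hybridised with RNA of 4 cell groups sorted from bone marrow of the pelvis, tibia and femur, with 2 arrays per group and 8 in all. The groups were Id2-GFP+ pre-CD8, Id2-GFP- pre-CD8, Id2-GFP+ CDP and Id2-GFP- CDP cells, where CDP is the common dendritic cell progenitor, pre-CD8 is a progenitor that the labels name without defining, and GFP is a reporter inserted after an internal ribosome entry site in the Id2 gene. Titles, sources and descriptions give all 4 groups as cells of Id2-IRES-GFP reporter mice. The genotype field gives heterozygous Id2-IRES-GFP for both Id2-GFP- CDP samples and heterozygous Zbtb46-GFP for the other 6. By that field, Id2-GFP- CDP is the only group with a genotype of its own. If the field is right, differences from that group cannot be told apart from a difference of genotype. The same then holds for the comparison of the reporter difference between pre-CD8 and CDP. Total RNA was labelled with a kit for picogram amounts (Affymetrix WT Pico). Sort gates, age, strain and the number of animals per sample are not given in the sources used here, and nothing says that the 2 arrays of a group came from separate animals. A p-value here therefore covers only how far arrays of the same group differ. That spread is pooled over the 4 groups and drawn towards that of other genes, and it may be technical.

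MHC class I molecules show peptides from inside the cell to CD8 T cells. Proteasomes cut proteins into peptides, and in many immune cells Psmb8, Psmb9 and Psmb10 replace the catalytic subunits Psmb5, Psmb6 and Psmb7, which changes the peptides made. The Tap1 and Tap2 proteins form a pump that carries peptides into the endoplasmic reticulum, where Tapbp (tapasin), Calr (calreticulin) and Pdia3 (ERp57) hold the empty class I molecule beside the pump and help a peptide to bind, and Erap1 shortens peptides that are too long. The CD8-type dendritic cell, also called cDC1, is known for presenting engulfed antigen on class I, which is called cross-presentation.

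The upstream sequences of 4 members are shown, since the results below turn on Tapbp, on the pair Tap1 and Psmb9, on B2m and on Calr. RefSeq's promoter table for GRCm38.p6 holds a window for 9 of the 10 members, Tap2 being the one named only. Each window has 250 bases before the annotated start and 50 bases from it. The first 250 bases are printed 5′ to 3′ on the gene's strand, and capitals mark motif matches.
Tapbp, chr17:33919228-33919477, plus strand: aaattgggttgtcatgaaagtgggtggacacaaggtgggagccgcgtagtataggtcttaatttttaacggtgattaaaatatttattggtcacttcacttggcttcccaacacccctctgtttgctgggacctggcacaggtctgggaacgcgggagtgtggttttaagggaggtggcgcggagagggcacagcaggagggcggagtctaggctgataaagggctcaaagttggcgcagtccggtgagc
Tap1, chr17:34187306-34187555, plus strand: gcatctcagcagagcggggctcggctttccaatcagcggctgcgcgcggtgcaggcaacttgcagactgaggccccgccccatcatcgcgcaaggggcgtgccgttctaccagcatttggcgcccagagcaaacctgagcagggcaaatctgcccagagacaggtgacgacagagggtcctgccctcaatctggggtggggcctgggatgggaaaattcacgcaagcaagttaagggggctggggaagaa
B2m, chr2:122147437-122147686, plus strand: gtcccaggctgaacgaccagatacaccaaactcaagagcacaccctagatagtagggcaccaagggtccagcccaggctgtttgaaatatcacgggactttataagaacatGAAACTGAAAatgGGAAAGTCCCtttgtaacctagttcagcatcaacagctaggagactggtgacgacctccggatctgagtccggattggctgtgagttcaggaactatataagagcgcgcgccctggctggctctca
Calr, chr8:84846932-84847181, minus strand: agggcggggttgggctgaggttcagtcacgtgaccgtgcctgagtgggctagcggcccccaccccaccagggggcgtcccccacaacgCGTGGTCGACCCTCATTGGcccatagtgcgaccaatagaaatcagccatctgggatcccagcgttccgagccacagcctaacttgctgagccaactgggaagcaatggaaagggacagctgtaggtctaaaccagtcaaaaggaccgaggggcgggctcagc
Psmb9 starts on the other strand and 225 bases separate its start from that of Tap1, so the Tap1 sequence above also holds what lies before Psmb9, and the windows of the 2 genes share 275 bases. Psmb9, Tap1, Psmb8 and Tap2 lie close together on chromosome 17, and Tapbp is on the same chromosome. 3 motifs were searched on both strands, and they were chosen after expression values had been seen. GAAA followed after any 2 bases by GAAA, a core of the interferon-stimulated response element, was found in the windows of B2m and Erap1 and in 3.44% of all 32851 windows. GGG followed after any 2 bases by TTTCC, an NF-kappaB-like motif, was found in B2m alone among the members and in 1.63% of all windows. In B2m the first lies at positions -139 to -130 from the start and the second, on the opposite strand, at -126 to -117, without overlap. CCAAT followed after any 9 bases by CCACG, the endoplasmic reticulum stress element, was found in Calr alone among the members, at -162 to -144 on the minus strand of the window, and in 0.119% of all windows. The same element was found in the windows of Canx, Hspa5, Hsp90b1 and Pdia6, 4 of 10 further folding and loading helpers with a window. None of the 3 was found in the windows of Tapbp, Tap1, Psmb8, Psmb9, Psmb10 or Pdia3. A match describes letters only.

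Values are log2 of the deposited intensity. Differences are given as log2 with the standard error of a limma fit over all 19938 genes and all 8 arrays, and a gene passed when its p, adjusted (Benjamini-Hochberg) across the whole table, was under 0.05. Id2 itself was at 10.69 and 10.99 in Id2-GFP+ pre-CD8 against 5.9 and 7.18 in the Id2-GFP- class of pre-CD8, and at 9.77 and 9.26 in Id2-GFP+ CDP against 5.14 and 6.3 in Id2-GFP- CDP. The arrays fall into a brighter and a dimmer set of 4, with mean intensities of 460.7 to 477.9 and 401.6 to 413.8, and each group has 1 array in each set. This split was made from the mean intensity of these same arrays, not from a label, so p-values of a fit that uses it may be too small. Where it changes the call of a member, or of a named gene or list in the pre-CD8 reporter comparison, the result of a fit with the set as a block is given too. In RNA from sorted populations, a lower share of cells expressing a gene and less of its RNA per cell cannot be told apart.

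**Figure D1:**
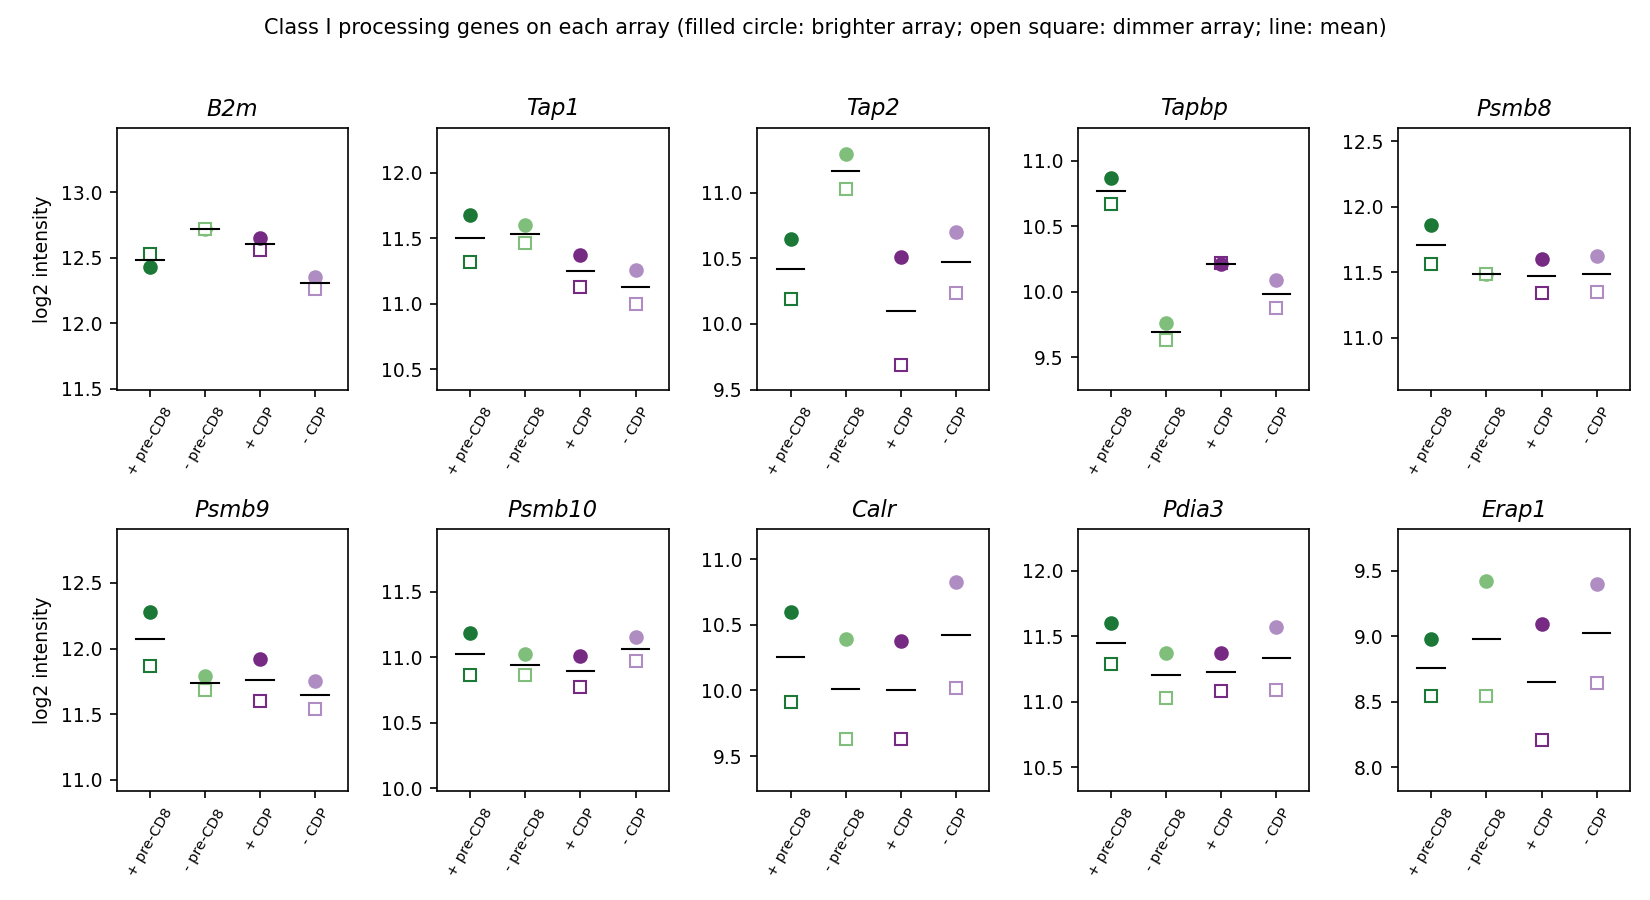
Log2 intensity (vertical axis) of the 10 class I processing genes on each of the 8 arrays, by group (horizontal axis; + and - stand for Id2-GFP+ and Id2-GFP-), with every panel spanning 2 log2 units. Filled circles are the 4 brighter arrays, open squares the 4 dimmer arrays and lines the mean of 2 arrays; Tapbp has no overlap between any 2 groups, while in Calr and Erap1 the circles lie above the squares in all 4 groups.

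One member, Tapbp, passed in 1 of the 6 comparisons between groups. Its level in Id2-GFP+ pre-CD8 cells was 2.11-fold that in Id2-GFP- pre-CD8 cells. The other 9 members passed in none of the 6 comparisons in that fit. Tap1, Tap2 and B2m had their highest means in Id2-GFP- pre-CD8 cells, where Tapbp had its lowest, although for Tap1 the pre-CD8 groups overlapped. Calr, Erap1, Pdia3 and Psmb10 differed more between the brighter and the dimmer arrays than between any 2 groups.

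Tapbp was at 10.67 and 10.87 in Id2-GFP+ pre-CD8 and at 9.76 and 9.63 in Id2-GFP- pre-CD8 cells. It was at 10.22 and 10.21 in Id2-GFP+ CDP and at 10.09 and 9.88 in Id2-GFP- CDP. The order was thus Id2-GFP+ pre-CD8, Id2-GFP+ CDP, Id2-GFP- CDP and Id2-GFP- pre-CD8, and no neighbours in this order overlapped. The pre-CD8 reporter difference was 1.08 ± 0.18 (95% interval 0.66 to 1.5), with an adjusted p of 0.0111 by limma, and it was 1.11 within the brighter and 1.05 within the dimmer arrays. Leaving out 1 array at a time gave differences from 0.98 to 1.17 with adjusted p-values from 0.0167 to 0.11. The call was lost without Id2-GFP+ pre-CD8 replicate 2 (adjusted p = 0.11), Id2-GFP- pre-CD8 replicate 1 (0.0566) or Id2-GFP- pre-CD8 replicate 2 (0.0897). With the array set as a block the adjusted p was 1.36e-05.

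In CDP the reporter difference of Tapbp was 0.24 ± 0.18, with an interval of -0.18 to 0.65. The difference between the 2 reporter differences, pre-CD8 minus CDP, was 0.84 ± 0.26 with an adjusted p of 0.415 by limma, and 0.00351 once the array set was a block. Tapbp in Id2-GFP+ pre-CD8 differed from Id2-GFP- CDP by 0.79 ± 0.18, which did not pass (adjusted p = 0.0926) but passed with the set as a block (0.000314), after quantile normalization (0.0311) and after median centring (0.0313). Its difference from Id2-GFP+ CDP was 0.55 ± 0.18, with an adjusted p of 1, and of 0.0142 with the block. Id2-GFP- pre-CD8 differed from Id2-GFP+ CDP by -0.52 ± 0.18, at 0.198 and, with the block, 0.00221. A pair of other probe sets names Tapbp together with the ribosomal protein gene Rps3a1, and neither was used. The first was at 12.97 and 12.91 in Id2-GFP+ pre-CD8 against 13.01 and 13.04 in Id2-GFP- pre-CD8. The second was at 12.68 and 12.65 against 12.76 and 12.72. Neither thus showed the Tapbp difference, and the share of each gene in their signal was not tested.

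B2m, the light chain that every classical class I molecule needs to fold and reach the surface, was at 12.53 and 12.43 in Id2-GFP+ pre-CD8 and at 12.72 and 12.72 in Id2-GFP- pre-CD8. It was at 12.56 and 12.65 in Id2-GFP+ CDP and at 12.35 and 12.26 in Id2-GFP- CDP. The groups did not overlap, although the whole range over 8 arrays was 0.46. Id2-GFP- pre-CD8 differed from Id2-GFP- CDP by 0.42 ± 0.12, with an adjusted p of 0.195 by limma and 0.00109 once the array set was a block. The reporter difference was 0.30 ± 0.12 in CDP and -0.24 ± 0.12 in pre-CD8, at 0.824 and 0.415, and at 0.015 and 0.0145 with the block. These opposite signs differed by -0.54 ± 0.17, at 0.441 and, with the block, 0.00356.

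Among the transporter genes, Tap2 was at 10.19 and 10.65 in Id2-GFP+ pre-CD8 and at 11.3 and 11.03 in Id2-GFP- pre-CD8. It was at 9.69 and 10.51 in Id2-GFP+ CDP and at 10.7 and 10.24 in Id2-GFP- CDP. Both Id2-GFP- pre-CD8 arrays lay above the other 6, and the other 3 groups overlapped. Id2-GFP- pre-CD8 differed from Id2-GFP+ CDP by 1.07 ± 0.31, with an adjusted p of 0.113 by limma, 8.23e-05 with the array set as a block and 0.003 after quantile normalization. The CDP reporter difference was -0.37 ± 0.31 and did not pass in any of these fits. The pre-CD8 reporter difference was -0.75 ± 0.31, the opposite sign to that of Tapbp, at 0.274, 0.00076 and 0.00894 in the 3 fits. Against Id2-GFP- CDP the Id2-GFP- pre-CD8 difference was 0.70 ± 0.31, at 0.571, 0.00255 and 0.0279.

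Tap1, the partner of Tap2 in the pump, was at 11.32 and 11.68 in Id2-GFP+ pre-CD8 and at 11.6 and 11.46 in Id2-GFP- pre-CD8. It was at 11.13 and 11.37 in Id2-GFP+ CDP and at 11.26 and 11 in Id2-GFP- CDP. The pre-CD8 groups overlapped each other and so did the CDP groups. The pre-CD8 reporter difference was -0.03 ± 0.19 with an interval of -0.46 to 0.41, and its sign turned to 0.06 after median centring. Id2-GFP- pre-CD8 differed from Id2-GFP- CDP by 0.40 ± 0.19, which did not pass (adjusted p = 0.647 by limma) but passed with the array set as a block (0.00529) and after quantile normalization (0.0207). With the block Tap1 also passed in Id2-GFP+ pre-CD8 against Id2-GFP- CDP (0.37, adjusted p = 0.00717) and in Id2-GFP- pre-CD8 against Id2-GFP+ CDP (0.28, adjusted p = 0.022).

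The immunoproteasome subunits spanned a narrow range. Psmb9, which replaces Psmb6, was at 11.87 and 12.28 in Id2-GFP+ pre-CD8, at 11.79 and 11.68 in Id2-GFP- pre-CD8, at 11.6 and 11.92 in Id2-GFP+ CDP and at 11.75 and 11.54 in Id2-GFP- CDP. The pre-CD8 groups did not overlap, and their difference was 0.34 ± 0.19, with an adjusted p of 0.502 by limma and 0.00783 once the array set was a block. The difference of Id2-GFP+ pre-CD8 from Id2-GFP- CDP was 0.43 ± 0.19, at 0.521 and, with the block, 0.00339. Tap1 and Psmb9, which start 225 bases apart on the sequence printed above, differed between the pre-CD8 reporter classes by -0.03 and 0.34.

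Psmb8, which replaces Psmb5, was at 11.56 and 11.86 in Id2-GFP+ pre-CD8, at 11.49 and 11.49 in Id2-GFP- pre-CD8, at 11.34 and 11.6 in Id2-GFP+ CDP and at 11.62 and 11.35 in Id2-GFP- CDP. Only the pre-CD8 groups did not overlap, with a difference of 0.22 ± 0.18 and an interval of -0.19 to 0.64. Psmb10, which replaces Psmb7, was at 10.86 and 11.18 in Id2-GFP+ pre-CD8, at 11.02 and 10.86 in Id2-GFP- pre-CD8, at 10.77 and 11.01 in Id2-GFP+ CDP and at 11.15 and 10.97 in Id2-GFP- CDP. Its groups all overlapped, and its pre-CD8 reporter difference was 0.09 ± 0.19 with an interval of -0.35 to 0.52, or -0.03 after quantile normalization. Neither subunit passed in any comparison, with or without the array set as a block. Their constitutive counterparts Psmb5, Psmb6 and Psmb7 differed between the pre-CD8 reporter classes by 0.10, 0.05 and 0.20 and passed neither with nor without the block.

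The chaperones and the peptidase varied chiefly between arrays of the same group. Calr was at 9.91 and 10.6 in Id2-GFP+ pre-CD8, at 10.39 and 9.63 in Id2-GFP- pre-CD8, at 9.63 and 10.38 in Id2-GFP+ CDP and at 10.83 and 10.02 in Id2-GFP- CDP. Its brighter arrays exceeded its dimmer arrays by 0.75 on average, while group means spanned 0.42. Its pre-CD8 reporter difference was 0.25 ± 0.41, with an interval of -0.69 to 1.18. With the array set as a block the standard error was 0.09, and Calr passed in Id2-GFP+ CDP against Id2-GFP- CDP (-0.42, adjusted p = 0.0189 by limma), in Id2-GFP- pre-CD8 against Id2-GFP- CDP (-0.42, 0.0105) and in the interaction (0.66, 0.0092).

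Erap1 was at 8.54 and 8.98 in Id2-GFP+ pre-CD8, at 9.42 and 8.54 in Id2-GFP- pre-CD8, at 8.21 and 9.09 in Id2-GFP+ CDP and at 9.4 and 8.64 in Id2-GFP- CDP. All groups overlapped, the brighter minus dimmer mean was 0.74 and group means spanned 0.37. Erap1 passed in no comparison with or without the array set as a block. Pdia3 was at 11.29 and 11.6 in Id2-GFP+ pre-CD8, at 11.37 and 11.03 in Id2-GFP- pre-CD8, at 11.08 and 11.37 in Id2-GFP+ CDP and at 11.57 and 11.09 in Id2-GFP- CDP. Its brighter minus dimmer mean was 0.35 against a span of group means of 0.25. Its pre-CD8 reporter difference was 0.25 ± 0.23, and with the block its adjusted p was 0.0361.

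**Figure D2:**
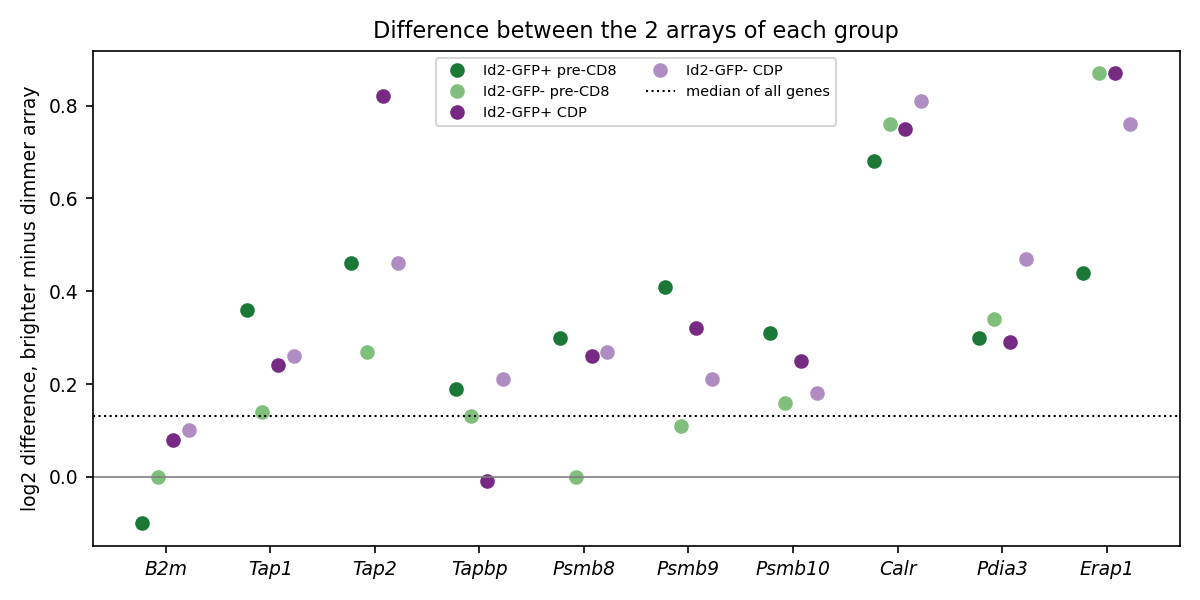
Log2 intensity of the brighter minus the dimmer array (vertical axis) in each of the 4 groups (colours) for the 10 class I processing genes (horizontal axis); the dotted line is the median of all genes, 0.13. Calr lies between 0.68 and 0.81 in all 4 groups, while Tapbp lies between -0.01 and 0.21.

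Over the members, the median difference between brighter and dimmer arrays was 0.26, and 8 of 10 were higher on the brighter array in all 4 groups. Of all genes 41.8% were so, and of the 3797 genes at least as bright as the dimmest member 75.5%. All 4 brighter arrays lay above all 4 dimmer ones for Calr, Erap1, Pdia3 and Psmb10, which is 40% of the members, 18.5% of all genes and 33.3% of the bright genes. What sets the brighter arrays apart was not tested.

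**Figure D3:**
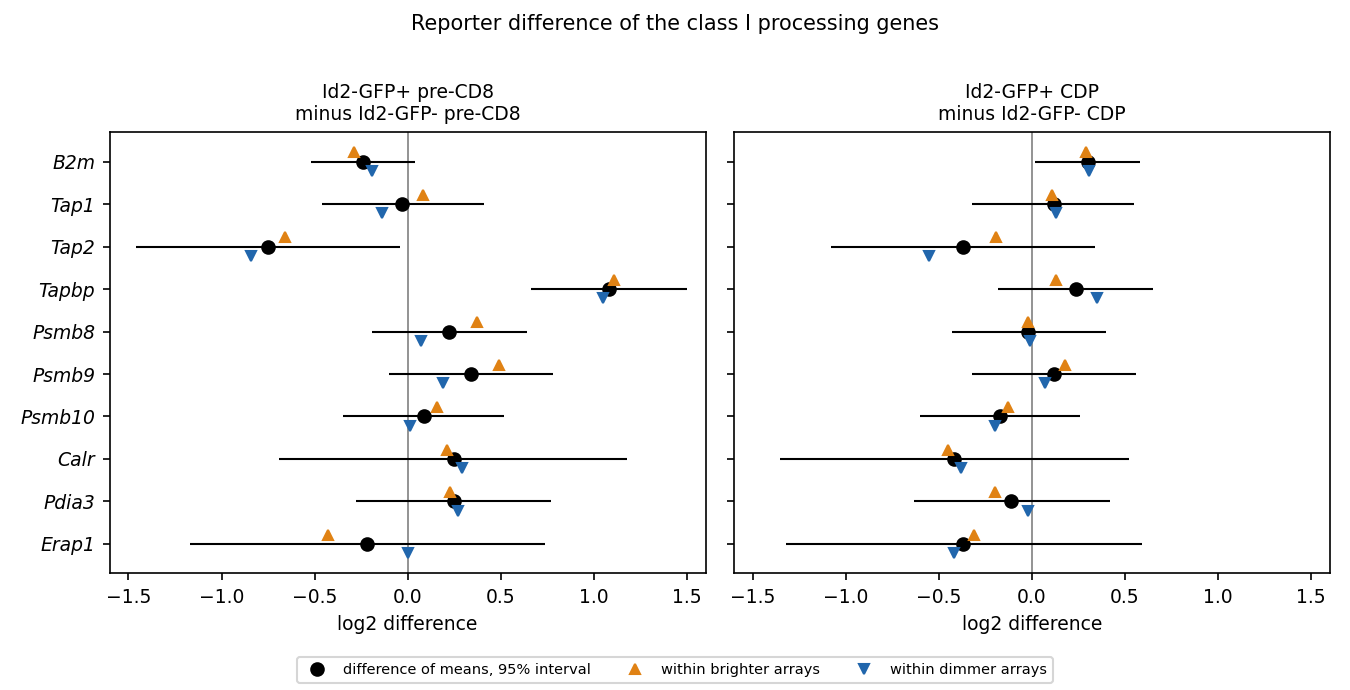
Log2 difference between reporter classes (horizontal axis, Id2-GFP+ minus Id2-GFP-) for each member in pre-CD8 (left) and CDP (right); circles with lines are the difference of group means with its 95% interval from limma, and triangles are the differences within the 4 brighter and the 4 dimmer arrays. Tapbp in pre-CD8 lies at 1.08 with an interval of 0.66 to 1.5, and Tap2 lies at -0.75 with an interval of -1.46 to -0.04.

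Counted over the members, Id2-GFP+ pre-CD8 against Id2-GFP- pre-CD8 had 1 of 10 passing, against 6.26% of all genes (3.57% higher and 2.7% lower). With the array set as a block it was 5, against 24.2% of all genes. Of these, Tapbp, Psmb9 and Pdia3 were higher, against 11% of all genes, and Tap2 and B2m lower, against 13.2%. The members' median difference was 0.15, beside -0.01 for all genes. In 5 of 10 members the 2 groups did not overlap, beside 40.5% of all genes. In Id2-GFP+ CDP against Id2-GFP- CDP 0 of 10 passed by limma, 1 member had an unadjusted p under 0.05, and 0.597% of all genes passed. With the block 2 passed, B2m higher and Calr lower, against 7.85% of all genes, and 2 of 10 did not overlap, beside 25% of all genes.

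Id2-GFP- pre-CD8 against Id2-GFP- CDP had 0 of 10 passing by limma, 1 with an unadjusted p under 0.05, and 1.63% of all genes passing. With the block 4 passed, B2m, Tap1 and Tap2 higher and Calr lower, against 12.5%. Id2-GFP- pre-CD8 against Id2-GFP+ CDP had 0 of 10 by limma, 2 with an unadjusted p under 0.05, and 4.89% of all genes. With the block 3 passed, Tap1 and Tap2 higher and Tapbp lower, against 21.9%. In each of these comparisons 4 of 10 members did not overlap, beside 31.6% and 34.9% of all genes.

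Id2-GFP+ pre-CD8 against Id2-GFP- CDP had 0 of 10 by limma, 1 with an unadjusted p under 0.05, and 1.79% of all genes. With the block Tapbp, Tap1 and Psmb9 passed, all of them higher, against 15.8% in either direction, and 4 of 10 did not overlap, beside 33.5%. Id2-GFP+ pre-CD8 against Id2-GFP+ CDP had 0 of 10 by limma, 1 with an unadjusted p under 0.05, and 0% of all genes. With the block Tapbp alone passed, against 2.08% in either direction, and 2 of 10 did not overlap, beside 19.3%. In the interaction 0 of 10 passed by limma, 2 had an unadjusted p under 0.05 and 0.145% of all genes passed. With the block Tapbp and Calr passed above and B2m below, against 7.48%. These comparisons share groups and are not independent of each other.

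The rest of the class I pathway was read from lists of related genes, in Id2-GFP+ pre-CD8 against Id2-GFP- pre-CD8, the comparison in which the member Tapbp passed. There 3.57% of all genes passed above, 2.7% passed below, and the median of all genes was -0.01. With the array set as a block 11% passed above and 13.2% below. The list counts of this comparison that follow are to be read beside these shares. Of 9 class I heavy chain genes measured, 0 passed by limma, 1 had an unadjusted p under 0.05, and their median was -0.01 (0.07 after median centring). With the set as a block 1 passed above, H2-T24 (0.87, adjusted p = 0.033), and 1 below, H2-Q4 (-0.64, adjusted p = 0.00683). H2-M3, which presents formylated peptides, differed by 0.41 and passed in neither fit. H2-K1 and H2-D1, the classical heavy chains, were not analysed here, and heavy chain genes are near-identical in parts, so their values are less certain. Of 3 other heavy chains that pair with B2m, 2 fell. Mr1, which presents vitamin metabolites, was at 5.99 and 6.13 in Id2-GFP+ pre-CD8 against 8.25 and 8.05 in Id2-GFP- pre-CD8, a difference of -2.09 ± 0.24 with an adjusted p of 0.00216. Cd1d1, which presents lipids, differed by -1.54 ± 0.31 (adjusted p = 0.023), a call lost when Id2-GFP- pre-CD8 kept a single array or replicate 2 of Id2-GFP+ pre-CD8 was left out, with an adjusted p of up to 0.176, and lost under the replicate block. Mr1 passed whichever of the 8 arrays was left out. Hfe, which takes part in iron sensing, differed by 0.57, at an adjusted p of 0.225, and passed with the set as a block (0.0174) and after quantile normalization (0.0478).

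Of 14 constitutive subunits of the core proteasome 0 passed by limma and 0 had an unadjusted p under 0.05, with a median of 0.10 (-0.01 after quantile normalization). With the set as a block 2 passed, both higher: Psma7 at 0.40 (adjusted p = 0.00136) and Psmb2 at 0.22 (0.0238). Of 9 proteasome activators and assembly chaperones 2 rose, and the median was -0.07 (0.02 after median centring). Psme2, a subunit of the interferon-inducible activator, was at 11.81 and 12.12 in Id2-GFP+ pre-CD8 against 11.15 and 10.95 in Id2-GFP- pre-CD8, a difference of 0.92 ± 0.17 with an adjusted p of 0.0144. Leaving out the same 3 arrays, each in turn, ended its call, with an adjusted p of up to 0.135, and it has a near-identical copy in the genome. Its partner Psme1 differed by 0.28, at an adjusted p of 0.79, and passed with the set as a block (0.0272). The assembly chaperone gene Psmg1 differed by -0.81, at an adjusted p of 0.247, and passed with the block (0.000229) and after quantile normalization (0.00802), so that 3 of these 9 genes were higher and 1 lower with the block. Pomp, which helps to assemble new proteasomes, differed by 0.61 ± 0.15 (adjusted p = 0.0491), a call lost whichever of the 8 arrays was left out, with adjusted p-values from 0.0641 to 0.32.

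Of 12 further folding and loading helpers of the endoplasmic reticulum 0 passed by limma, 2 had an unadjusted p under 0.05, and the median was 0.03 (-0.09 after quantile normalization). Tapbpl, a relative of tapasin that edits peptides, was at 8.85 and 9.33 in Id2-GFP+ pre-CD8 against 8.46 and 8.27 in Id2-GFP- pre-CD8. Its difference was 0.72 ± 0.25, at an adjusted p of 0.168, and at 0.00111 with the array set as a block, 0.00877 after quantile normalization and 0.0484 after median centring. Erp29 differed by 0.64, at an adjusted p of 0.113, and at 0.00155 with the block and 0.0397 after quantile normalization. Uggt1, which tests folding, differed by 0.51, at 0.634 and, with the block, 0.00336, so that 3 of the 12 were higher with the block. Canx (calnexin) differed by -0.09 and passed in none of these fits. These helpers had a median brighter minus dimmer difference of 0.36, with 11 of 12 higher on the brighter array in all 4 groups. Of 6 peptidases that trim class I peptides outside the endoplasmic reticulum 0 passed by limma and 0 had an unadjusted p under 0.05, with a median of -0.19. The cytosolic peptidase gene Thop1 differed by -0.50, at an adjusted p of 0.433, and was the 1 of 6 that passed with the set as a block (0.0412).

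Of 17 regulators of class I genes and parts of interferon signalling 2 rose, with a median of -0.04 (0.04 after median centring). With the set as a block 5 were higher and 5 lower, beside 11% and 13.2% of all genes. The kinase genes Jak2 and Tyk2 differed by 1.92 ± 0.31 (adjusted p = 0.00892) and 1.11 ± 0.24 (adjusted p = 0.032). The Jak2 call ended when replicate 2 of either pre-CD8 group was left out, with an adjusted p of up to 0.0734. The Tyk2 call ended when replicate 2 of Id2-GFP+ pre-CD8 or any Id2-GFP- array, pre-CD8 or CDP, was left out, with an adjusted p of up to 0.238, and also under the replicate block. Nlrc5, the transactivator of class I genes, was at 10.02 and 10.6 in Id2-GFP+ pre-CD8 against 11.38 and 10.79 in Id2-GFP- pre-CD8. Its difference was -0.78 ± 0.32 with an adjusted p of 0.278, 0.00071 with the set as a block and 0.021 after quantile normalization. Nlrc5 had its highest mean, 11.09, in Id2-GFP- pre-CD8, as Tap1, Tap2 and B2m did. Tapbp, Psmb8, Psmb9 and Pdia3 had theirs in Id2-GFP+ pre-CD8, and Psmb10, Calr and Erap1 in Id2-GFP- CDP. Among the members, the highest group lay apart from the next only for B2m, Tap2 and Tapbp, so the other rankings are uncertain. Irf1 differed by -0.52, at 0.394 and, with the block, 0.042.

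Of 11 genes of cross-presentation 6 rose, with a median of 1.35, and with the set as a block 7 were higher. The dead-cell receptor gene Clec9a was at 9.78 and 10.55 in Id2-GFP+ pre-CD8 against 5.47 and 6.28 in Id2-GFP- pre-CD8, a difference of 4.29 ± 0.40 with an adjusted p of 0.00102. Clec9a in Id2-GFP- pre-CD8 also differed from Id2-GFP- CDP, by -3.41 ± 0.40 (adjusted p = 0.00638 by limma). Rab32, a vesicle transport gene, differed by 2.11 ± 0.23, the oxidase subunit gene Cyba by 1.46 ± 0.15, and Wdfy4, which cDC1 need to cross-present cell-bound antigen, by 1.35 ± 0.23. Cybb at 2.54 and Rab43 at 1.97 complete the 6 and are named because the count is small. The Wdfy4 call ended when replicate 2 of either pre-CD8 group was left out, and the Rab43 call when Id2-GFP- pre-CD8 kept a single array, with adjusted p-values of up to 0.0944 and 0.0577. In CDP 2 of these 11 genes rose, Cybb by 2.77 and Cyba by 0.94, beside 0.597% of all genes in either direction. With the block 6 of the 11 were higher, beside 7.85%. Clec9a was at -0.02 in that CDP comparison. There 7 of 9 markers of neutrophils and granules rose by limma, with a median of 3.81, and 4 of 8 cDC1 markers rose. None of either list fell by limma. The part of these markers in the rise of Cybb and Cyba was not tested.

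Of 18 interferon response genes 6 fell, with a median of -0.86 and 11 at an unadjusted p under 0.05. With the set as a block 12 were lower and 1 higher. Rtp4 was at 6.58 and 7.73 in Id2-GFP+ pre-CD8 against 10.42 and 10.04 in Id2-GFP- pre-CD8, a difference of -3.08 ± 0.42. Oasl2 differed by -2.54 ± 0.34 and Ddx58, a sensor of viral RNA, by -2.47 ± 0.40, and the Ddx58 call ended when replicate 1 of Id2-GFP- pre-CD8 was left out (adjusted p = 0.0513). In Id2-GFP- pre-CD8 against Id2-GFP- CDP 4 of 18 rose, beside 1.63% of all genes passing in either direction. With the block 15 were higher and 1 lower, beside 12.5%. Against Id2-GFP+ CDP 6 of 18 rose, beside 4.89% of all genes in either direction, and with the block 14 were higher, beside 21.9%. Interferons are known to induce many class I processing genes. Tap1, Tap2, Psmb8, Psmb9 and B2m had pre-CD8 reporter differences of -0.03, -0.75, 0.22, 0.34 and -0.24 and did not pass. Psmb10 at 0.09, Erap1 at -0.22, and Calr and Pdia3, each at 0.25, did not pass either. Tapbp passed, at 1.08. With the block Tap2, Psmb9, Pdia3 and B2m passed too, as given above.

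**Figure D4:**
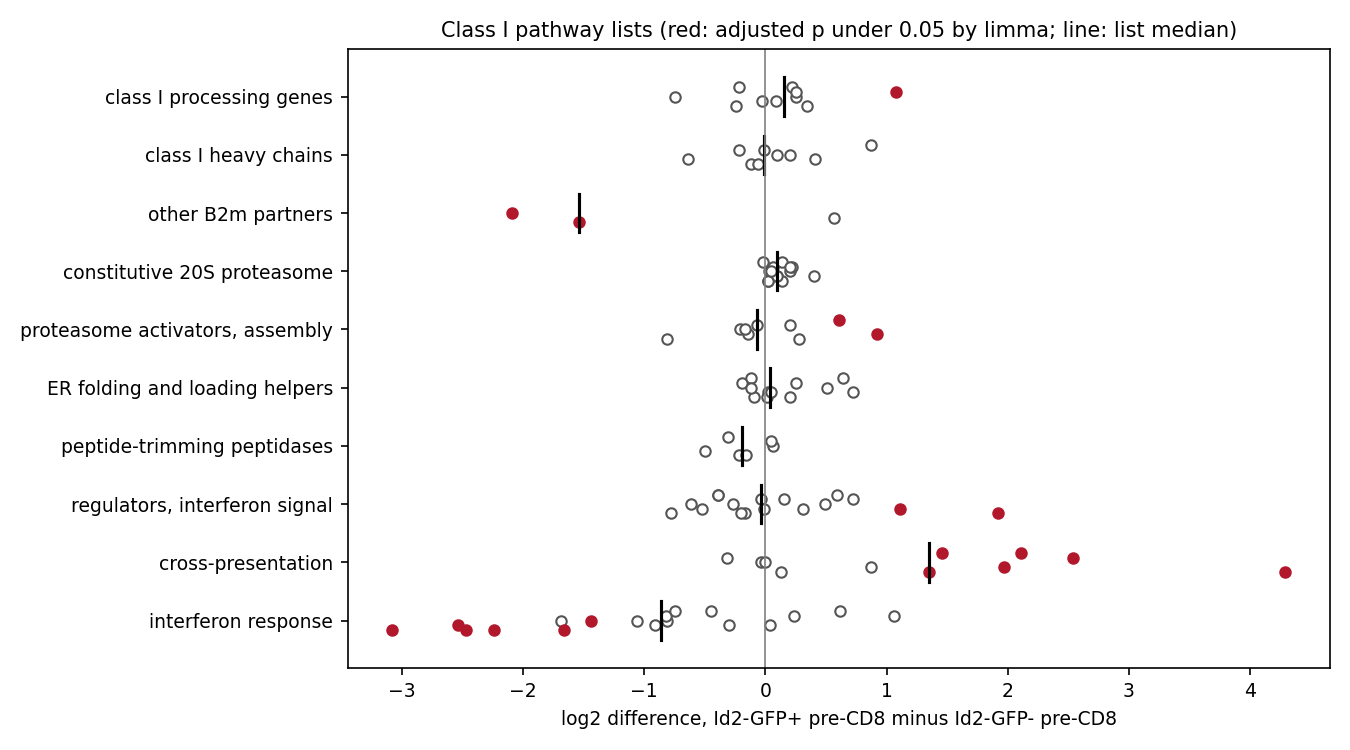
Log2 difference, Id2-GFP+ pre-CD8 minus Id2-GFP- pre-CD8 (horizontal axis), of every measured gene of the class I processing genes and 9 related lists (rows); red points passed at an adjusted p under 0.05 by limma, and black bars are list medians. Red points lie on the higher side for cross-presentation, at 1.35 to 4.29, and on the lower side for the interferon response.

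The 3 genes with profiles most like Tapbp over the 8 arrays were Tns3, Man2b1 and Coq10b. After each gene's own mean was subtracted, their root mean square differences from Tapbp were 0.091, 0.092 and 0.092 log2 units, against 0.403 for the deviation of Tapbp from its own mean.

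Markers of other cell types moved with the pre-CD8 reporter classes beside these genes. The summed linear intensity of 8 cDC1 markers ranged over 5679 to 9225 in Id2-GFP+ pre-CD8 and over 517 to 580 in Id2-GFP- pre-CD8, while it ranged over 2668 to 3144 in Id2-GFP+ CDP and over 999 to 1368 in Id2-GFP- CDP. That of 9 neutrophil and granule markers ranged over 38412 to 44015 in Id2-GFP+ pre-CD8 and over 11730 to 13715 in Id2-GFP- pre-CD8, while it ranged over 53045 to 76496 in Id2-GFP+ CDP and over 10367 to 17909 in Id2-GFP- CDP. That of 7 B lineage markers ranged over 685 to 690 in Id2-GFP+ pre-CD8 and over 1727 to 2455 in Id2-GFP- pre-CD8, while it ranged over 619 to 774 in Id2-GFP+ CDP and over 889 to 912 in Id2-GFP- CDP. That of 6 plasmacytoid dendritic cell markers ranged over 4134 to 4910 in Id2-GFP+ pre-CD8 and over 5473 to 7281 in Id2-GFP- pre-CD8, while it ranged over 3803 to 4943 in Id2-GFP+ CDP and over 5628 to 6481 in Id2-GFP- CDP. That of 8 T and NK cell markers ranged over 600 to 761 in Id2-GFP+ pre-CD8 and over 927 to 1090 in Id2-GFP- pre-CD8, while it ranged over 756 to 1152 in Id2-GFP+ CDP and over 477 to 523 in Id2-GFP- CDP. The median of these markers' mean log2 values went the other way in pre-CD8, at 5.46 in Id2-GFP+ and 4.84 in Id2-GFP- cells. That of 3 erythroid markers lay between 112 and 159 on all 8 arrays, and 0 of the 3 passed in the pre-CD8 reporter comparison by limma, with 0 at an unadjusted p under 0.05. In that comparison 6 of 8 cDC1 markers rose, 7 of 9 neutrophil markers rose and 1 fell, 3 of 7 B lineage markers and 2 of 6 plasmacytoid markers fell, and 2 of 8 T and NK cell markers rose. Under the block, 7 of the cDC1 markers were higher, 8 neutrophil markers higher and 1 lower, 5 B lineage and 4 plasmacytoid markers lower, and 4 T and NK cell markers higher and 1 lower. Of all genes 3.57% rose and 2.7% fell there by limma, and 11% and 13.2% under the block. The summed intensity of 5 markers of dendritic cell progenitors, such as Flt3 and Csf1r, lay between 11549 and 15707 on all 8 arrays, and 2 of the 5 rose and 2 fell in that comparison, with 3 higher and 2 lower with the block. No marker is at 0 on this scale, since background-corrected array values do not reach it. The part of these markers in the Tapbp, Tap2 and pathway differences was not tested.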

How the data were processed

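Per the submitters' processing notes, the authors processed the arrays with RMA in Affymetrix Expression Console, with no versions stated, and deposited linear intensity values for 28853 probe sets. RMA removes background, equalises arrays and combines the probes of a set, and it can compress differences of dim genes. Array annotation gave 1 symbol to 21789 probe sets, several to 1621 and none to 5443, and 21698 matched RefSeq by Entrez identifier. Probe sets with 1 symbol were kept, the brightest per gene, which left 19938 genes. The log2 of these values was used without further scaling.

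Groups came from titles. limma 3.58.1 in R 4.3.3 fitted all 8 arrays with an intensity trend (4 residual and 4.19 prior degrees of freedom). Tests were two-sided, with Benjamini-Hochberg adjustment over all genes and a threshold of 0.05, over 6 group pairs and an interaction. The script was tested on simulated data whose noise was independent between arrays and genes. Those data held no brighter and dimmer array set, so that test does not cover errors the sets may bring. Python 3.11.15 was used for tables and figures. Replicate numbers come from the titles and did not pair arrays: same-numbered deviations correlated at 0.713 and 0.69 where the numbers lay in the same array set, and at -0.626 to -0.685 elsewhere.

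Members and lists were chosen with earlier results of these data known. The rule for named genes took all members, up to 3 genes per list with the smallest p in the pre-CD8 reporter comparison, a fixed set of pathway genes and the 3 nearest profiles of each member that passed. Alternatives were a replicate or array set block, quantile normalization, median centring, a filter on dim genes, no intensity trend, the mean of probe sets, only the compared groups, and leaving out each array.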

Additional observations from a re-analysis of the deposited data

Results flagged for a closer look

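Clec9a, the dead-cell receptor gene of the cross-presentation list, had a reporter difference of 4.29 ± 0.40 in pre-CD8 and of -0.02 ± 0.40 in CDP. The CDP value was 0.6 within the brighter and -0.64 within the dimmer arrays. Id2-GFP- pre-CD8 differed from Id2-GFP- CDP by -3.41 ± 0.40 (adjusted p = 0.00638 by limma). Id2-GFP+ pre-CD8 differed from Id2-GFP+ CDP by 0.9 ± 0.40, which did not pass. The reporter effects in pre-CD8 and CDP are compared next. Clec9a stood out because its 2 reporter effects differed from each other, by 4.31 ± 0.56 (log2, pre-CD8 minus CDP). The adjusted p was 0.0397 by limma over all genes, 0.000429 under the array set block and 0.023 after quantile normalization. The call was lost whichever of the 8 arrays was left out, with Clec9a differences of 3.90 to 4.72 and adjusted p-values of 0.0537 to 0.189. Groups of 2 arrays allow no test for outlying arrays.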

How the results depend on the processing

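With 2 arrays per group the number of arrays limits the precision, and signal over background was not used here. Tapbp in Id2-GFP+ pre-CD8 against Id2-GFP- pre-CD8 kept its call in every alternative run except 3 of the 8 that leave out an array. The replicate block gave 1 member called there, as without it, with adjusted p = 0.0388 for Tapbp, and changed no other member's call. With the array set as a block the members called numbered 5 there, 2 in Id2-GFP+ CDP against Id2-GFP- CDP, then 4 in Id2-GFP- pre-CD8 against Id2-GFP- CDP, then 1 in Id2-GFP+ pre-CD8 against Id2-GFP+ CDP, then 3 in Id2-GFP+ pre-CD8 against Id2-GFP- CDP, then 3 in Id2-GFP- pre-CD8 against Id2-GFP+ CDP and 3 in the interaction. Quantile normalization gave 2 in the pre-CD8 reporter comparison, 2 in Id2-GFP- pre-CD8 against Id2-GFP- CDP, then 1 in Id2-GFP+ pre-CD8 against Id2-GFP- CDP and 2 in Id2-GFP- pre-CD8 against Id2-GFP+ CDP. Median centring gave 1 in the pre-CD8 reporter comparison and 1 in Id2-GFP+ pre-CD8 against Id2-GFP- CDP. Of 70 values of single members, 20 newly passed with the set as a block and 6 after quantile normalization. Of 280 values of related genes, 91 newly passed with the set as a block, 25 after quantile normalization and 10 after centring, and 7 calls were lost under the replicate block. The cause was not tested. Leaving out 1 array at a time gave 0 to 1 members in the pre-CD8 reporter comparison and 0 to 0 in the others.

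Over all genes, 1249 were called in the pre-CD8 reporter comparison, with 838 under the replicate block, 4822 under the array set block and 466 to 1313 without 1 array. In Id2-GFP+ CDP against Id2-GFP- CDP these counts were 119, 85, 1566 and 35 to 126. For Id2-GFP- pre-CD8 against Id2-GFP- CDP they were 324, 157, 2486 and 77 to 326. For Id2-GFP+ pre-CD8 against Id2-GFP- CDP they were 357, 208, 3154 and 77 to 370. For Id2-GFP- pre-CD8 against Id2-GFP+ CDP they were 975, 642, 4376 and 436 to 867. Id2-GFP+ pre-CD8 against Id2-GFP+ CDP gave 0, 0, 414 and 0 to 1, with 643 genes at an unadjusted p under 0.05. The interaction gave 29, 6, 1492 and 2 to 15. Of calls in Id2-GFP- pre-CD8 against Id2-GFP- CDP, 206 were higher and 118 lower, against 416 and 442 after quantile normalization and 224 and 298 after centring. Those of Id2-GFP+ pre-CD8 against Id2-GFP- CDP were 277 and 80, against 563 and 354 after quantile normalization. In the interaction they were 7 and 22, against 101 and 101 and, after centring, 24 and 25. Centring moved the median of all genes in the interaction to 0.128, against -0.007 without it, and Tapbp there was 0.98 against 0.84. The fit of only the compared groups gives no interaction.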
